A study of Mus musculus with 72 samples.

Results

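Mitochondrial DNA of the mouse codes for 13 proteins of the respiratory chain and ATP synthase, 2 ribosomal RNAs and a set of transfer RNAs, and its transcripts are described here in pancreatic islets. The genes were chosen by name, as every row of the normalized matrix whose gene symbol starts with mt-, and 9 of the 14604 genes of the table met this rule. They are mt-Rnr1 and mt-Rnr2, the RNAs of the small and large subunits of the mitochondrial ribosome, mt-Nd1, mt-Nd2, mt-Nd4, mt-Nd5 and mt-Nd6, all subunits of complex I (NADH dehydrogenase), mt-Cytb, the cytochrome b of complex III, and mt-Co1, the catalytic subunit of complex IV (cytochrome c oxidase). In GRCm38 coordinates of chrM the rRNA genes are at 70-1024 (mt-Rnr1) and 1094-2675 (mt-Rnr2), followed on the same strand by mt-Nd1 at 2751-3707, mt-Nd2 at 3914-4951, mt-Co1 at 5328-6872, mt-Nd4 at 10167-11544, mt-Nd5 at 11742-13565 and mt-Cytb at 14145-15288. mt-Nd6 lies on the opposite strand at 13552-14070, and none of the genes has an intron. The other 6 mRNA genes of the mitochondrial genome (mt-Co2, mt-Co3, mt-Atp6, mt-Atp8, mt-Nd3 and mt-Nd4l) were not analysed here.

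Both strands of mitochondrial DNA are transcribed as long precursors, which are cut into rRNAs, mRNAs and tRNAs, mostly at the tRNAs that stand between the genes. Of the protein genes, mt-Nd6 alone is read from the light strand, and the others, with both rRNAs, come from the heavy-strand precursor. In beta cells the respiratory chain links glucose breakdown to insulin release, since the ATP it drives closes the potassium channels that hold the membrane at rest. The complexes are built from mitochondrial and nuclear subunits together.

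The islets came from males of the inbred strains DBA/2J, BALB/cJ and C57BL/6J (spelled C56BL/6J in the labels), with an age of 8 weeks in the labels that is not tied to the start or the end of the diet. Some were fed a high-fat diet, HFD, and the others regular chow, RC, and islets were taken at day 5, 13 or 33, so that strain, diet and day make 18 groups. HFD was set against RC, and DBA/2J and BALB/cJ against C57BL/6J. All groups shared Liberase digestion, hand-picking and a night of recovery in culture before RNA was taken from 120 to 150 islets of 1 mouse, so the islets were out of the animal for a night before measurement. DBA/2J HFD day 13, DBA/2J RC day 33 and C57BL/6J RC day 33 had 3 libraries and the other 15 groups 4, for 69 libraries from 22 DBA/2J, 24 BALB/cJ and 23 C57BL/6J mice. The libraries were made from poly(A)-selected RNA, so an RNA with a short tail or none is measured only as far as the selection kept it.

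The stop codons of the protein genes show what the tail does in this genome. The last 30 bases of the annotated 7 protein genes are printed below 5′ to 3′ on the coding strand (GENCODE transcripts, GRCm38), with the stop codon, or the part of it that the DNA holds, in capitals.
mt-Nd1 (chrM:3678-3707, + strand): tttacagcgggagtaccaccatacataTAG
mt-Nd2 (chrM:4922-4951, + strand): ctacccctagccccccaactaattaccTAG
mt-Co1 (chrM:6843-6872, + strand): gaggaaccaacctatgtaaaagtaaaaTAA
mt-Nd4 (chrM:11515-11544, + strand): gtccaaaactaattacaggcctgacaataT
mt-Nd5 (chrM:13536-13565, + strand): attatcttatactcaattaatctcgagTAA
mt-Nd6 (chrM:13552-13581, - strand): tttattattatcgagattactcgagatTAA
mt-Cytb (chrM:15259-15288, + strand): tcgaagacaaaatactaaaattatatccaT
mt-Nd4 and mt-Cytb end in a single T, which becomes a stop codon once adenines are added to the RNA, whereas mt-Nd1, mt-Nd2, mt-Co1, mt-Nd5 and mt-Nd6 carry a full one. The ends of mt-Nd5 and mt-Nd6 face each other and overlap by 14 bases (chrM:13552-13565) on opposite strands. The library kit kept strand information, but whether the counting used it is not given in the sources used here, so reads of mt-Nd6 and of heavy-strand RNA across it cannot be told apart.

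Copies of mitochondrial DNA in the nuclear genome also bear on these counts, because a 125-base read that matches both cannot be assigned to one. Every 125-base stretch of each mitochondrial gene was looked up in the annotated nuclear transcripts. No stretch of mt-Rnr1, mt-Rnr2, mt-Nd1, mt-Nd5, mt-Nd6 or mt-Cytb was found there, and 0.547% of those of mt-Nd2 were. For mt-Co1 the share was 26.7%, with Gm29216 as the nuclear copy holding most of them (chr1:24615706-24616197), and for mt-Nd4 it was 60%, all in Gm28439 (chr1:24611535-24612410), so the levels of mt-Co1 and mt-Nd4 are uncertain by the reads the authors' counting could have dropped or split. Of the 6 genes not analysed here, mt-Co2, mt-Atp6, mt-Co3, mt-Nd3 and mt-Nd4l had 97.3% to 99.8% of their stretches in annotated nuclear transcripts. mt-Atp8 had none there. Nuclear DNA outside annotated transcripts was not searched, so a copy there would have been missed. Of the 10 nuclear copies, Gm13340, Gm13341 and Gm29216 are in the table. Their levels were low in every library, with at most 9.25, 3.36 and 4.33 CPM, the reads of a gene scaled to a common library size.

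Levels are given as log2 CPM, as the authors normalized them, and the depth behind them, recovered from the values, was 12292621 to 34591079 reads in the 14604 genes per library (median 22756199). Replicates differed by more than counting error (chi-square per degree of freedom of 4.81 to 130.1 over 99 pairs). A library stands for 1 mouse, and the spread behind each p-value is that among mice. As a check of the tissue, all 10 beta-cell markers, among them Ins1 and Ins2, were detected, and the summed level of the list was 165308 to 271264 CPM in DBA/2J, 171441 to 275397 in BALB/cJ and 129834 to 257235 in C57BL/6J.

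The 9 genes together took 1.69% to 3.00% of the summed linear CPM in DBA/2J islets (median 2.33%), 1.82% to 2.80% in BALB/cJ islets (median 2.32%) and 2.46% to 3.84% in C57BL/6J islets (median 3.00%). The ranges overlap between strains, but the medians of DBA/2J and BALB/cJ lie below the lowest C57BL/6J library. By diet, the share was 1.82% to 3.84% on HFD (median 2.54%) and 1.69% to 3.36% on RC (median 2.51%). These are shares of the RNA in bulk islets, in which less mitochondrial RNA per cell and fewer cells rich in it cannot be told apart.

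**Figure D1:**
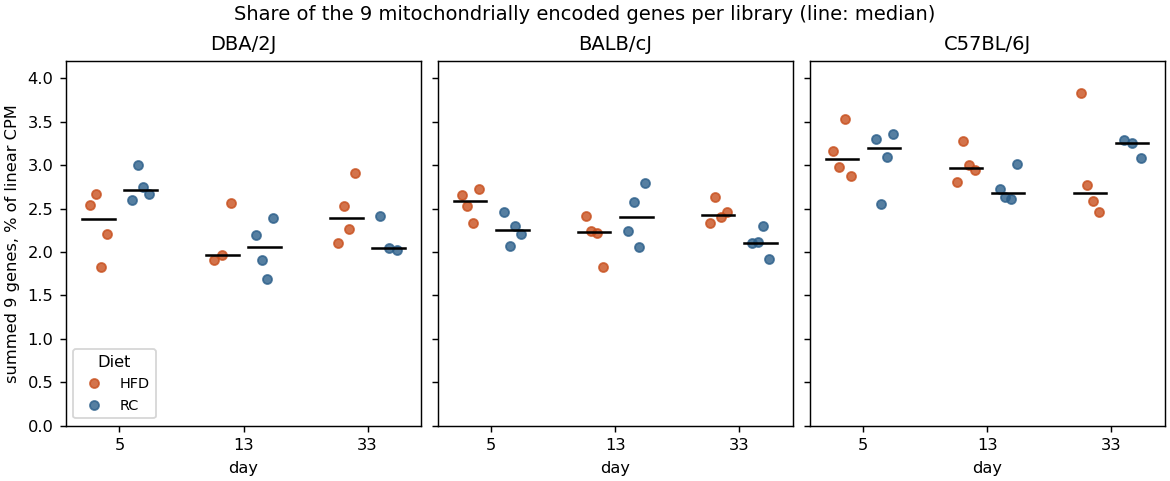
Summed linear CPM of the 9 mitochondrially encoded genes as a percent of all deposited genes (y axis) by day (x axis), 1 point per library, in 3 panels for DBA/2J, BALB/cJ and C57BL/6J, with HFD left of RC and a line at each median. The C57BL/6J libraries reach 3.84%, and no DBA/2J or BALB/cJ library exceeds 3.00%.

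Per kilobase of gene, the mRNAs of the catalytic core of complexes IV and III were the most abundant. The median level over the 69 libraries was 5516 CPM per kilobase for mt-Co1 and 5343 for mt-Cytb. The complex I mRNAs followed, with 2862 for mt-Nd1, 2093 for mt-Nd5, 1863 for mt-Nd2 and 1370 for mt-Nd4. The rRNAs stood far below the mRNAs in these poly(A)-selected libraries, with 102 CPM per kilobase for mt-Rnr2 and 67.2 for mt-Rnr1. The light-strand mRNA mt-Nd6 was lowest, at 13.3, and rested on 72 to 593 reads per library, against 78368 to 238704 for mt-Cytb. How much of the mt-Nd6 RNA the poly(A) selection kept was not measured. Neighbours in this order differed by less than the spread over libraries for mt-Co1 and mt-Cytb: mt-Co1 was 5160, 5111 and 6161 CPM per kilobase in the median DBA/2J, BALB/cJ and C57BL/6J library, and mt-Cytb was 4943, 5061 and 5971. mt-Nd5 and mt-Nd2 were likewise close in DBA/2J, at a median of 1850 and 1750 CPM per kilobase. Of the summed CPM of the 9 genes, mt-Co1 took 33.6%, mt-Cytb 24.1% and mt-Nd5 15.3%.

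The clearest difference among the 9 genes was between strains, and within it the rRNAs of DBA/2J. mt-Rnr1, the small-subunit rRNA, lay at 4.68 to 5.66 log2 CPM in the 22 DBA/2J libraries (median 5.25) and at 5.95 to 6.81 in the 23 C57BL/6J libraries (median 6.45). The 2 ranges do not overlap, and every DBA/2J library was below every C57BL/6J library. How many of all genes separate in this way was not counted, and 68% of them were called in this comparison. The difference for mt-Rnr1 was -1.20 ± 0.08 (log2, SE; adjusted p = 4.51e-19 by limma over all genes), a level of 0.434 of that in C57BL/6J. For both rRNAs this is the level in poly(A)-selected RNA, and how much the selection kept in each strain was not measured. mt-Rnr2, the large-subunit rRNA, lay at 6.31 to 7.38 in DBA/2J (median 6.66) and 7.13 to 8.14 in C57BL/6J (median 7.58), where 18 of 22 DBA/2J libraries were below the lowest C57BL/6J library. Its difference was -0.88 ± 0.08 (adjusted p = 2.88e-14).

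The heavy-strand mRNAs were also lower in DBA/2J than in C57BL/6J, with smaller estimates than those of the rRNAs. mt-Nd5, a proton-pumping subunit of the complex I membrane arm, lay at 11.15 to 12.12 log2 CPM in DBA/2J (median 11.72) and 12.04 to 12.52 in C57BL/6J (median 12.18), so that 20 of 22 DBA/2J libraries were below the lowest C57BL/6J library. mt-Nd1, the subunit at the ubiquinone site, lay at 10.75 to 11.64 (median 11.12) and 11.28 to 12.03 (median 11.61) in DBA/2J and C57BL/6J. The log2 differences were -0.51 ± 0.05 for mt-Nd5 and -0.56 ± 0.06 for mt-Nd1 (adjusted p = 2.03e-12 and 4.13e-12). mt-Nd2 and mt-Nd4, further pumping subunits of the membrane arm, differed by -0.45 ± 0.06 and -0.31 ± 0.05, mt-Cytb by -0.30 ± 0.05 and mt-Co1 by -0.27 ± 0.05, all past the threshold of 0.05 (adjusted p of at most 1.06e-05). Quantile normalization, which sets the most abundant genes to the value of their rank, gave 0 for mt-Cytb and ended its call. In all, 8 of 9 genes were called lower and 0 higher, where 68% of all 14604 genes were called in this comparison, 33.6% lower and 34.4% higher. The median change was -0.45 over the 9 genes and 0.0043 over all genes.

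mt-Nd6 stood apart from this pattern. It lay at 2.11 to 3.73 log2 CPM in DBA/2J (median 2.82), 2.05 to 3.66 in BALB/cJ (median 2.93) and 1.96 to 4.28 in C57BL/6J (median 2.58), ranges that overlap almost fully. The difference from C57BL/6J was 0.11 ± 0.16 in DBA/2J and 0.07 ± 0.16 in BALB/cJ (log2, SE; adjusted p = 0.565 and 0.694), with 95% intervals of -0.22 to 0.44 and -0.25 to 0.40. As for the rRNAs, these are levels in poly(A)-selected RNA.

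**Figure D2:**
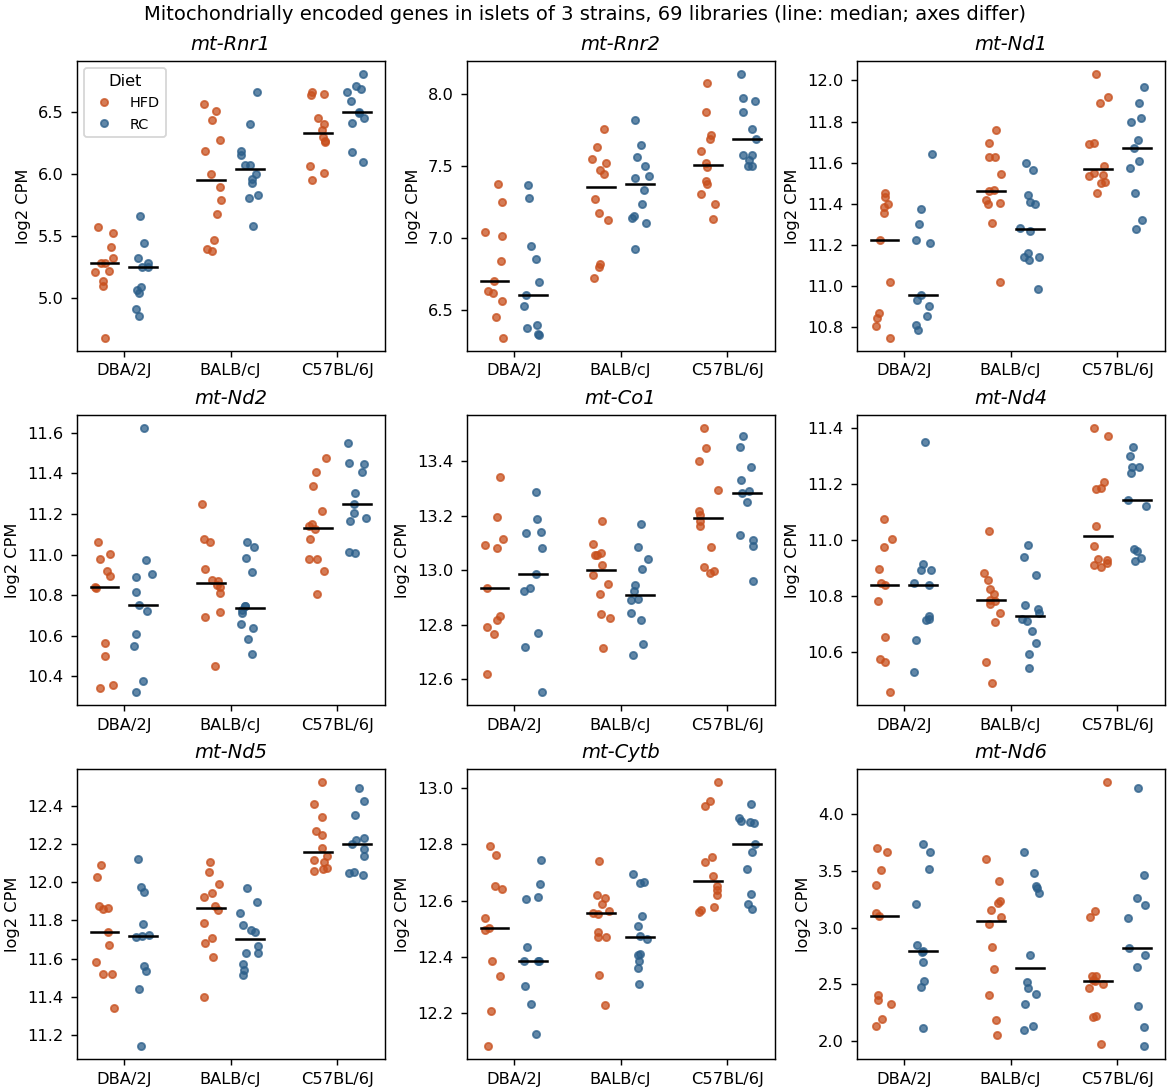
Level of each of the 9 genes (log2 CPM, y axis, with its own scale per panel) in DBA/2J, BALB/cJ and C57BL/6J islets, 1 point per library, HFD left of RC, with a line at the median. The DBA/2J points of mt-Rnr1 (4.68 to 5.66) all lie below the C57BL/6J points (5.95 to 6.81), and those of mt-Nd6 overlap in all 3 strains.

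BALB/cJ islets were also below C57BL/6J islets in 8 of the 9 genes (67.2% of all genes were called, 34% lower and 33.2% higher), with a narrower range of estimates and with mt-Co1 turned the other way under quantile normalization. mt-Nd5 lay at 11.40 to 12.11 log2 CPM in BALB/cJ (median 11.76), with 22 of 24 libraries below the lowest C57BL/6J library. mt-Nd4 lay at 10.49 to 11.03 in BALB/cJ (median 10.76) and 10.90 to 11.40 in C57BL/6J (median 11.12), with 21 of 24 libraries below the lowest C57BL/6J library. The log2 difference was -0.45 ± 0.05 for mt-Nd5 and -0.35 ± 0.05 for mt-Nd4 (adjusted p = 5.04e-11 and 1.98e-09). The other called genes ran from -0.42 ± 0.08 for mt-Rnr1 and -0.39 ± 0.06 for mt-Nd2 to -0.25 ± 0.05 for mt-Cytb, with -0.32 ± 0.08 for mt-Rnr2, -0.28 ± 0.05 for mt-Co1 and -0.28 ± 0.06 for mt-Nd1 between them (adjusted p of at most 4.03e-04), and mt-Co1 turned to 0.13 under quantile normalization. The median change was -0.32, against -0.0010 over all genes. With the macrophage, endothelial and stellate marker levels as covariates, 2 of these 8 genes passed the threshold, mt-Nd4 (-0.32, adjusted p = 0.0224) and mt-Nd5 (-0.51, adjusted p = 0.00144), and mt-Rnr1 was -0.03 (adjusted p = 0.923).

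Between the other strain pair, BALB/cJ was above DBA/2J in both rRNAs and in mt-Nd1. mt-Rnr1 lay at 5.38 to 6.66 log2 CPM in BALB/cJ (median 6.00), and 20 of its 24 libraries exceeded the highest DBA/2J library. mt-Rnr2 lay at 6.72 to 7.82 in BALB/cJ (median 7.38), and 12 of 24 libraries exceeded the highest DBA/2J library. The differences were 0.79 ± 0.08 for mt-Rnr1, 0.56 ± 0.08 for mt-Rnr2 and 0.28 ± 0.06 for mt-Nd1 (log2, SE; adjusted p = 4.06e-12, 3.27e-08 and 5.63e-05), so 3 of 9 genes were called where 48.5% of all genes were. For the other 6 genes the difference did not pass the threshold, with estimates of -0.04 to 0.07 and adjusted p of 0.357 to 0.880. Those estimates have 95% intervals within -0.14 to 0.19 for mt-Nd2, mt-Co1, mt-Nd4, mt-Nd5 and mt-Cytb. Quantile normalization called 6 genes, adding mt-Co1 (0.30), mt-Nd4 (-0.17) and mt-Nd5 (-0.19). mt-Nd4 was also called lower in BALB/cJ after GC correction (-0.10, adjusted p = 0.0440) and after GC and length correction (-0.08, adjusted p = 0.0423).

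The strain differences were present under each diet. For DBA/2J against C57BL/6J, 8 of 9 genes were called on HFD and 8 on RC, where 58.6% and 54.5% of all genes were. mt-Rnr1 differed by -1.08 on HFD and -1.32 on RC, and mt-Nd5 by -0.48 and -0.53. For BALB/cJ against C57BL/6J, mt-Nd5 differed by -0.38 on HFD and -0.51 on RC, both called, where 54.5% and 56.3% of all genes were. mt-Nd1 was not called on HFD (-0.18, adjusted p = 0.0558). mt-Rnr2 was called there (-0.26, adjusted p = 0.0416), and the call ended without C57BL/6J HFD day 5 replicate 3, day 13 replicate 1 or 2 or day 33 replicate 1, or without BALB/cJ HFD day 5 replicate 1 or 2, day 13 replicate 1 or 2 or day 33 replicate 3 or 4 (adjusted p of 0.0502 to 0.111). The diets use different mice, and the C57BL/6J libraries serve both strain comparisons.

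The balance between RNA types within a library is a second view of the same values. The mean log2 level of the 2 rRNAs minus that of the 6 heavy-strand mRNAs was -6.32 to -5.18 in DBA/2J (median -5.62), -5.58 to -4.57 in BALB/cJ (median -4.94) and -5.31 to -4.53 in C57BL/6J (median -5.03). The DBA/2J libraries lie lowest, with some overlap, and BALB/cJ and C57BL/6J cover the same range. mt-Nd6 minus the heavy-strand mRNAs lay at -9.52 to -7.84 in DBA/2J (median -8.58), -9.63 to -8.11 in BALB/cJ (median -8.79) and -10.1 to -7.91 in C57BL/6J (median -9.39), lowest by median in C57BL/6J. Among the mRNAs, mt-Nd5 minus mt-Cytb had a median of -0.72 in DBA/2J, -0.69 in BALB/cJ and -0.52 in C57BL/6J, and mt-Nd4 minus mt-Cytb had -1.66, -1.76 and -1.64. No test was made of these ratios.

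Base composition moved with the strain differences. The 9 genes hold 34.1% to 39.9% G and C, against a median of 49.6% over all genes. The 852 other genes at or below 39.9% had a median change of -0.20 in DBA/2J against C57BL/6J and -0.15 in BALB/cJ against C57BL/6J, where the rest of the genes had 0.016 and 0.0086. With a GC curve removed from each library, the median of the 9 genes was -0.21 in DBA/2J and -0.16 in BALB/cJ. mt-Rnr1 then differed by -0.97 ± 0.09 in DBA/2J, mt-Rnr2 by -0.64 ± 0.08 and mt-Nd1 by -0.35 ± 0.05 (adjusted p = 5.63e-15, 1.98e-10 and 1.36e-09). In the same fit mt-Nd4 in DBA/2J (-0.07 ± 0.04, adjusted p = 0.123) and mt-Rnr2 in BALB/cJ (-0.13 ± 0.08, adjusted p = 0.114) did not pass the threshold, and mt-Nd6 in DBA/2J was called higher (0.38 ± 0.16, adjusted p = 0.0333). Taking out GC content and then length left 8 of 9 genes called in both comparisons.

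**Figure D3:**
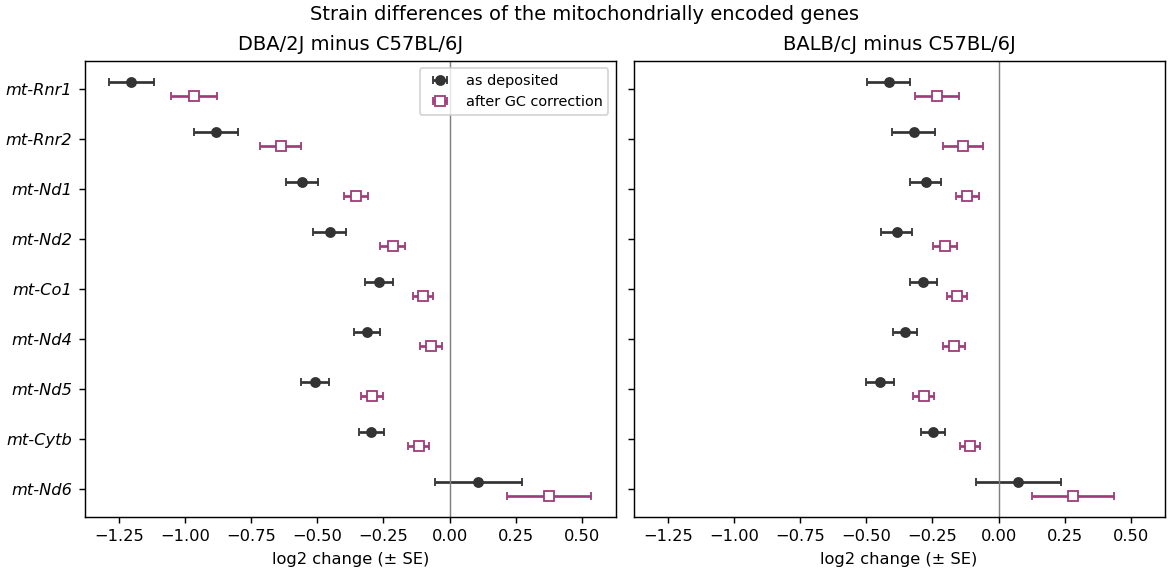
Log2 change (x axis, with SE bars) of each gene in DBA/2J (left) and BALB/cJ (right) minus C57BL/6J, from the deposited values (filled) and after GC correction (open). The change of mt-Rnr1 in DBA/2J is -1.20 before and -0.97 after the correction, and that of mt-Co1 is -0.27 before and -0.10 after.

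Markers of other cells moved with strain too. Acinar markers, enzymes of the exocrine pancreas, were called higher for 15 of 17 genes and lower for 0 in both DBA/2J and BALB/cJ against C57BL/6J, where 34.4% of all genes were higher and 33.6% lower in DBA/2J, and 33.2% higher and 34% lower in BALB/cJ. They had a summed level of 735 to 11690 CPM in DBA/2J, 606 to 53273 in BALB/cJ and 481 to 10343 in C57BL/6J. Endothelial markers were higher for 8 of 9 genes and lower for 0 in both strains (663 to 1029 CPM in DBA/2J, 739 to 976 in BALB/cJ and 543 to 731 in C57BL/6J). Stellate and fibroblast markers were higher for 6 of 11 genes and lower for 0 in DBA/2J, and higher for 10 and lower for 1 in BALB/cJ (228 to 649, 299 to 757 and 161 to 418 CPM in DBA/2J, BALB/cJ and C57BL/6J). Macrophage markers were lower for 7 of 9 genes and higher for 0 in DBA/2J, and lower for 5 and higher for 1 in BALB/cJ (132 to 239, 117 to 395 and 147 to 367 CPM in DBA/2J, BALB/cJ and C57BL/6J). Ductal markers were higher for 4 of 7 genes and lower for 2 in DBA/2J, and higher for 5 and lower for 1 in BALB/cJ. Beta-cell markers were higher for 4 of 10 genes and lower for 1 in DBA/2J, and higher for 7 and lower for 2 in BALB/cJ. With the acinar level as a covariate the counts of called mitochondrial genes stayed at 8, 8 and 3 in the strain comparisons, as they did without the most acinar library of each strain. With macrophage, endothelial and stellate levels as covariates they were 8, 2 and 3, where the share of all genes called against C57BL/6J was 33.8% in DBA/2J and 27.1% in BALB/cJ. Beyond these fits, the part of other cells in the strain differences was not tested.

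The nuclear genes for the same complexes were mostly called in the other direction. In DBA/2J against C57BL/6J, 32 of 36 nuclear complex I subunits were higher and 1 lower (median 0.26), 9 of 9 were higher for complex III (median 0.31), 12 of 13 were higher and 1 lower for complex IV (median 0.37), and 15 of 16 were higher and 1 lower for complex V, the ATP synthase (median 0.31). In BALB/cJ against C57BL/6J the counts were 25 higher and 1 lower, 7 and 0, 12 and 1, and 10 and 1. Together 68 of 74 nuclear subunits were higher in DBA/2J and 54 of 74 in BALB/cJ, where 34.4% and 33.2% of all genes were. Cox5a of complex IV differed by 0.64 ± 0.05 in DBA/2J and 0.35 ± 0.04 in BALB/cJ (log2, SE; adjusted p = 8.41e-19 and 5.39e-10), and Atp5g1, a gene for the membrane ring of ATP synthase, by 0.98 ± 0.06 in DBA/2J and 0.21 ± 0.06 in BALB/cJ. The same genes were lower in both strains, Ndufc2 of complex I (-0.28 ± 0.05 in DBA/2J and -0.20 ± 0.04 in BALB/cJ), Atp5l of complex V (-0.26 ± 0.10 in DBA/2J and -0.34 ± 0.10 in BALB/cJ) and Cox7a2l of the complex IV list, and were named after their values were seen. Cox7a2l, which joins complexes III and IV in supercomplexes, differed by -1.06 ± 0.04 in DBA/2J (adjusted p = 3.32e-32) and by -0.13 ± 0.04 in BALB/cJ (adjusted p = 0.0024). Sequence differences between strains, in Cox7a2l or in the other genes, were not examined. After GC correction 67 and 54 of the 74 nuclear subunits were called higher in DBA/2J and BALB/cJ, and 2 and 3 lower. After correction for GC and length, 55 were higher and 2 lower in DBA/2J (median 0.16), and 35 higher and 7 lower in BALB/cJ (median 0.066).

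**Figure D4:**
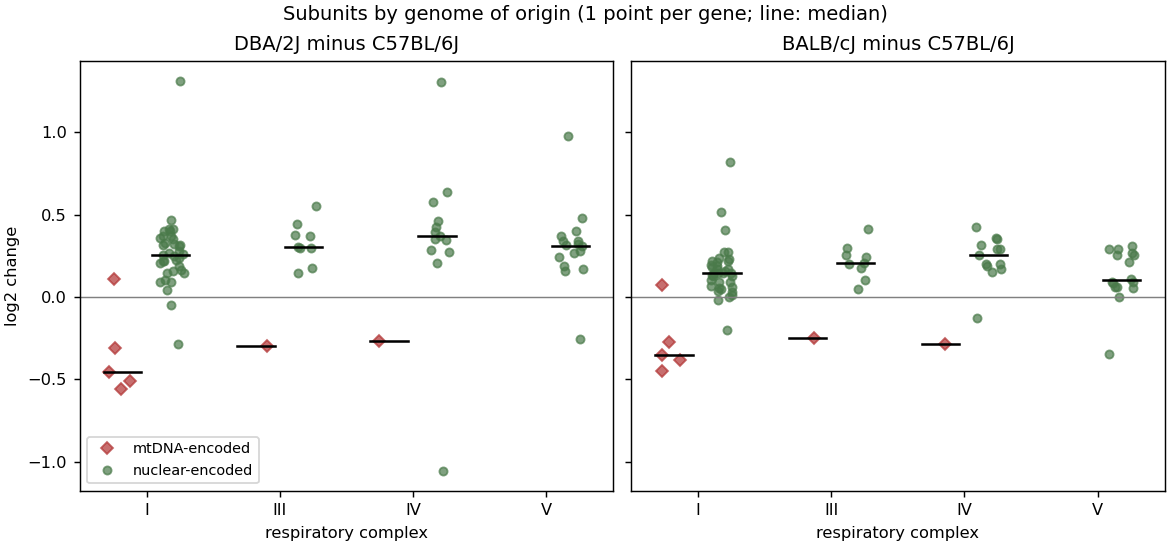
Log2 change (y axis) of subunits of complexes I, III, IV and V (x axis) in DBA/2J (left) and BALB/cJ (right) minus C57BL/6J, 1 point per gene, with mtDNA-encoded subunits left of nuclear-encoded ones and a line at each median. For complex I the medians are -0.45 and 0.26 in DBA/2J and -0.35 and 0.15 in BALB/cJ, and the mtDNA point above 0 is mt-Nd6.

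The proteins of the mitochondrial ribosome, which hold the 2 rRNAs, were also higher more often than lower. Of 78 genes in the list, 51 were higher and 7 lower in DBA/2J against C57BL/6J and 45 higher and 6 lower in BALB/cJ against C57BL/6J, beside 34.4% of all genes higher and 33.6% lower in DBA/2J and 33.2% and 34% in BALB/cJ. These counts are from the deposited values, and counts after GC and length correction were not made for this list. The list holds every row named Mrpl or Mrps, which takes in the pseudogene row Mrpl48-ps (4.01 ± 0.13 in DBA/2J). Mrpl35 differed by -1.01 ± 0.04 and Mrps27 by 0.45 ± 0.04 in DBA/2J (adjusted p = 8.20e-30 and 1.30e-14).

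The genes that transcribe, copy and regulate mitochondrial DNA were called in both directions. Of 23 genes for transcription and replication, 3 were higher and 7 lower in DBA/2J against C57BL/6J, and 5 and 6 in BALB/cJ. That is 10 and 11 of 23 called, where 68% and 67.2% of all genes were. For this list and those below, the share of all genes was 34.4% higher and 33.6% lower in DBA/2J, and 33.2% and 34% in BALB/cJ. Mterf3, which acts as a brake on mitochondrial transcription in mice, differed by -0.29 ± 0.05 in DBA/2J and -0.34 ± 0.04 in BALB/cJ (adjusted p = 1.27e-07 and 2.03e-09), and Top1mt, the mitochondrial topoisomerase, by 0.31 ± 0.09 in DBA/2J and 0.61 ± 0.09 in BALB/cJ. Of 22 genes for processing and decay of mitochondrial RNA, 8 were higher and 3 lower in DBA/2J and 7 and 3 in BALB/cJ. Of 10 regulators of mitochondrial biogenesis, 2 were higher and 5 lower in DBA/2J and 1 and 6 in BALB/cJ, so more were lower than higher in both. Among them Nrf1, a transcription factor for nuclear respiratory genes, differed by -0.24 ± 0.04 and -0.36 ± 0.04 (adjusted p = 7.81e-08 and 5.64e-13), and Ppargc1a, the coactivator PGC-1alpha, by -0.01 ± 0.10 in DBA/2J and -1.93 ± 0.09 in BALB/cJ (adjusted p = 0.933 and 3.71e-26).

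The high-fat diet moved none of the 9 genes past the threshold. With strains and days averaged, 0 of 9 were called by limma where 5.47% of all genes were. An unadjusted p under 0.05 was held by 0 of 9 genes and by 20.8% of all genes. On the recovered reads voom also called 0 of 9 (5.81% of all genes). Stellate and fibroblast markers were called lower on HFD for 5 of 11 genes, and with macrophage, endothelial and stellate levels as covariates 0 of the 9 genes were called as well. The differences ran from -0.07 for mt-Rnr1 to 0.08 for mt-Nd1, with 95% intervals that reached -0.21 and 0.18 over the 8 genes other than mt-Nd6, and -0.33 to 0.20 for mt-Nd6. mt-Co1 differed by -0.0007 ± 0.04 and mt-Cytb by 0.0039 ± 0.04. Within strains, 0 of 9 were called in DBA/2J (0% of all genes), BALB/cJ (0.151%) and C57BL/6J (14.6%). An unadjusted p under 0.05 was held by 0, 1 and 0 of the 9 genes, where 4.1%, 10.4% and 29.1% of all genes held one. The gene in BALB/cJ was mt-Nd1, at 0.18 ± 0.08 (adjusted p = 0.419). In C57BL/6J all 9 estimates were below 0, from -0.23 to -0.0069. With array weights, which give less weight to variable libraries, 4 passed the threshold there (mt-Rnr2, mt-Nd2, mt-Nd4 and mt-Cytb). That setting called more of all genes as well, 20.9% for diet over all strains and days against 5.47% in the main fit. In the tests of whether the diet difference depends on strain, 0 of 9 genes were called for DBA/2J against C57BL/6J (1.11% of all genes), BALB/cJ against C57BL/6J (1.27%) and BALB/cJ against DBA/2J (0%). The same test between day 33 and day 5 also called 0 (0.00685%). In all 4 tests 0 of the 9 genes had an unadjusted p under 0.05, where 18.1%, 17.2%, 3.23% and 6.51% of all genes did.

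At single days, each with 3 or 4 mice a group, 0 of 9 genes were called in each of the 9 comparisons of HFD with RC. Of all genes, 0.548%, 0% and 0.0205% were called in DBA/2J at days 5, 13 and 33, 0.315%, 0.00685% and 0% in BALB/cJ, and 1.87%, 1.04% and 0% in C57BL/6J. Unadjusted p-values under 0.05 were held by 4 of 9 genes in BALB/cJ at day 33 (4.58% of all genes), 2 in DBA/2J at day 5 (26.7%) and 0 in the other 7 (4.1% to 16.8%). In BALB/cJ at day 33, mt-Nd1 was 11.42, 11.55, 11.76 and 11.69 log2 CPM on HFD and 11.40, 11.13, 11.14 and 10.98 on RC. The 4 HFD libraries lay above the 4 RC libraries, and the difference of 0.44 ± 0.14 did not pass the threshold (adjusted p = 0.870). mt-Nd6 there was 3.22, 3.41, 2.64 and 3.09 on HFD and 2.42, 2.53, 2.13 and 2.10 on RC, again without overlap (0.80 ± 0.39, adjusted p = 0.963). Over 81 sets of gene, strain and day, HFD and RC did not overlap in 6, which were mt-Nd1, mt-Nd2, mt-Nd5, mt-Nd6 and mt-Cytb higher in BALB/cJ at day 33 and mt-Co1 lower in DBA/2J at day 5. Of all genes, 4.02% did not overlap in BALB/cJ at day 33, 11.7% in DBA/2J at day 5 and 4.14% to 12.2% in the other 7 comparisons. The heavy-strand mRNAs move together between mice, so the BALB/cJ sets are not independent. With array weights, 8 values passed the threshold over the 9 comparisons, 4 of them in C57BL/6J at day 33, 2 in DBA/2J at day 5 and 2 in DBA/2J at day 33. The share of all genes called at single days under that setting is not reported here.

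Between day 33 and day 5, within strain and diet, 1 value passed the threshold. In DBA/2J on HFD, mt-Rnr2 was 7.38, 7.02, 6.84 and 7.25 log2 CPM at day 33 and 6.31, 6.63, 6.70 and 6.56 at day 5, with no overlap. The difference was 0.57 ± 0.19 (adjusted p = 0.0273), where 23.3% of all genes were called, 12.7% higher. The share of all genes without overlap was not counted there. mt-Rnr1 in the same mice differed by -0.06 ± 0.20 (adjusted p = 0.847). The mt-Rnr2 call ended when DBA/2J HFD day 5 replicate 1, 3 or 4 or DBA/2J HFD day 33 replicate 1 or 4 was left out (adjusted p = 0.0736, 0.0601, 0.0535, 0.0834 and 0.0774), and after GC correction (0.26, adjusted p = 0.354). That correction called mt-Nd1 (-0.40, adjusted p = 0.00979) and mt-Nd4 (-0.38, adjusted p = 0.00743) lower at day 33 in the same mice, and mt-Nd4 was also called after GC and length correction (-0.28, adjusted p = 0.0315). In DBA/2J on RC, 5 genes had an unadjusted p under 0.05 between day 33 and day 5 (10.9% of all genes), from -0.50 ± 0.15 for mt-Nd1 to -0.25 ± 0.12 for mt-Nd4, and 0 passed the adjusted threshold (lowest adjusted p = 0.188; 0.00685% of all genes were called). With array weights 4 of these passed it, and the share of all genes called there under that setting is not reported here. In the other strain and diet sets 0 genes were called, where 0.555% and 0.00685% of all genes were in BALB/cJ on HFD and RC and 0.233% and 0.123% in C57BL/6J. Averaged over strains, 0 of 9 genes were called on HFD (4.04% of all genes) and 0 on RC (0.0822%).

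Mouse to mouse, the heavy-strand mRNAs moved together, as did the rRNA pair, and mt-Nd6 correlated weakly with both. Deviations of the 69 libraries from their group means correlated at 0.71 to 0.90 among the 6 heavy-strand mRNAs (15 pairs, Pearson r, as a description). mt-Nd4 and mt-Cytb were the most alike at 0.90, and mt-Nd1 and mt-Nd2 followed at 0.88. The rRNA pair stood at 0.77. Between rRNAs and heavy-strand mRNAs the range was 0.07 to 0.50, although they come from the same strand. mt-Nd6 correlated at 0.17 to 0.36 with the heavy-strand mRNAs and at 0.23 to 0.24 with the rRNAs. It is the only light-strand gene here, so a block by strand could not be seen. These points share library, depth and base composition, and the low read numbers of mt-Nd6 add counting error to its values. The within-group SD was 0.15 to 0.21 (log2) for the heavy-strand mRNAs, 0.29 for both rRNAs and 0.57 for mt-Nd6.

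**Figure D5:**
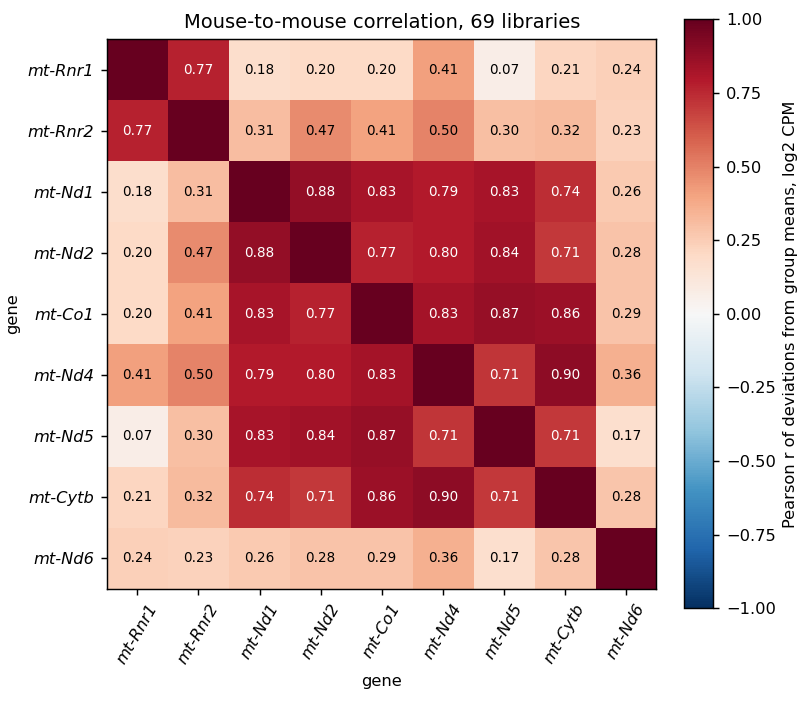
Pearson correlation (colour scale) between the 9 genes (both axes) over the deviations of 69 libraries from their group means in log2 CPM. The 6 heavy-strand mRNAs form a block at 0.71 to 0.90, the rRNAs a pair at 0.77, and mt-Nd6 stays at or below 0.36 with the other 8 genes.

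The same deviations were set against library features, again as a description over 69 libraries. The mean of the heavy-strand mRNAs correlated at -0.43 with the share of CPM taken by Ins1 and Ins2, at -0.37 with the ductal marker level and at -0.02 with the acinar marker level. The mean of the rRNAs correlated at 0.28 with acinar markers and 0.30 with stellate markers, and mt-Nd6 at -0.38 with acinar markers. Log2 reads correlated at -0.11 with the heavy-strand mRNAs, -0.22 with the rRNAs and 0.10 with mt-Nd6.

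Among 7294 genes at or above the median level, those whose 18 group means ran most like the mean of the 9 genes were Dhx36, a helicase of G-quadruplexes, Prkar2b, a regulatory subunit of protein kinase A, Alcam, an adhesion molecule, Usp53 and Myef2 (Pearson r of 0.93 to 0.94). Least like it were Grk2, a kinase of G protein-coupled receptors, Ccnd3, a cyclin, Gipc1, Tubg1 and C2cd2l (-0.93 to -0.92). Over the deviations of single libraries the most alike were Vamp4, Pcnp, Ap1s2, Smim10l1 and Dynlt3 (0.77 to 0.80) and among the least alike were Unc93b1, Dab2ip, Ralgds and Zkscan17 (-0.70 to -0.69). Vamp4, a vesicle membrane protein, was itself 0.65 ± 0.04 higher in DBA/2J than in C57BL/6J (adjusted p = 6.79e-22), opposite to the mitochondrial genes.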

How the data were processed

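Libraries were TruSeq stranded, poly(A)-selected, from 250 ng of RNA with quality numbers of 8.2 to 9.3, read single-end at 125 bases, per the labels' protocols. Per the submitters' processing notes, STAR 2.5.3a, HTSeq 0.9.1, edgeR and GRCm38 were used, with roles not given. Whether sequence differences between the strains and GRCm38 affected the counts was not tested. The deposited values are log2 CPM normalized by the authors. Whole reads came out for 100.0% of the values, within 0.05 reads. The labels' days (5, 13, 33) were used where the series text repeats 13. The 3 of 72 samples without a column were not analysed here.

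All 14604 genes entered limma 3.58.1 in R 4.3.3 (lmFit, eBayes with trend), with a mean for each group. Contrasts are two-sided, adjusted over all genes (Benjamini-Hochberg, threshold 0.05). Values after ± are SE. The fit was tested on simulated data. Sequences and positions come from GENCODE mouse release 21. All mt- genes are named, and up to 3 per nuclear list by lowest p in a strain comparison; some genes that this rule names are not reported here. The genes and lists were chosen with earlier results of these data known. Alternatives covered variance, scaling, filter, pseudocount, days, libraries, marker levels and title numbers. Correction for GC (a lowess curve per library) and length, and removal of acinar libraries, were added after seeing the data.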

Additional observations from a re-analysis of the deposited data

Results flagged for a closer look

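In 9 of 150 sets of 4 libraries of a group, 1 library lay far from the other 3, and chance alone would set apart about 1 in 20 sets. The sets of one library are not independent, because the heavy-strand mRNAs move together. C57BL/6J HFD day 33 replicate 1 was high in 4 genes: mt-Co1 was 13.52 log2 CPM (others 12.99 to 13.01), mt-Nd1 12.03 (11.45 to 11.54), mt-Nd4 11.40 (10.90 to 10.93) and mt-Rnr2 7.88 (7.31 to 7.40). DBA/2J RC day 5 replicate 2 was high in mt-Nd2, at 11.62 (10.89 to 10.97), and mt-Nd4, at 11.35 (10.84 to 10.91). DBA/2J HFD day 5 replicate 3 was low in mt-Nd1, at 10.81 (11.36 to 11.40). mt-Nd6 was high in C57BL/6J HFD day 13 replicate 2, at 4.28 (others at most 2.58), and low in BALB/cJ RC day 5 replicate 4, at 2.33 (3.35 to 3.48). Leaving out any one of these libraries changed none of the strain counts of 8, 8 and 3 called genes.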

How the results depend on the processing

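The strain counts (8 of 9 genes in DBA/2J and in BALB/cJ against C57BL/6J, 3 in BALB/cJ against DBA/2J) stayed the same in each of 69 removals of 1 library. Over all alternatives, 366 of 379 values of called genes kept direction and call, 12 lost the call and 1 reversed: mt-Co1 in BALB/cJ against C57BL/6J was 0.13 under quantile normalization, which sets the most abundant genes to the value of their rank. Of 703 such values under single diets, 3 reversed, under the same setting (mt-Co1 on both diets and mt-Cytb on RC, all in BALB/cJ against C57BL/6J). Counts that moved by more than 1.5 times were these. With macrophage, endothelial and stellate levels as covariates, 2 genes were called in BALB/cJ against C57BL/6J. Quantile normalization called 6 in BALB/cJ against DBA/2J. Array weights called 4 genes for diet in C57BL/6J (mt-Rnr2, mt-Nd2, mt-Nd4 and mt-Cytb, all lower on HFD), 8 over the single strain-days, 1 in the diet differences between strains (mt-Nd2) and 5 between day 33 and day 5. They also raised the share of all genes called for diet over all strains and days, from 5.47% to 20.9%. GC correction called 2 between day 33 and day 5 (mt-Nd1 and mt-Nd4, lower in DBA/2J on HFD), and GC with length correction called 1 for diet over all strains (mt-Nd1, 0.12). Smaller moves were 7 against C57BL/6J under quantile normalization in each strain and under GC correction in BALB/cJ, and 4 in BALB/cJ against DBA/2J under both corrections. Removals of 1 library gave 0 to 1 between day 33 and day 5. The cause of these moves was not tested. What the title numbers stand for is not known, and 21 pairs of HFD and RC libraries of a strain and day share one. Their deviations correlated at -0.29 to 0.35 (median 0.049, against -0.012 in 111 other pairs), with 9 over 0.1. These weak correlations cannot show whether the numbers pair mice. The replicate block on title numbers changed no count of called genes (8, 8 and 3 for strain, 0 for diet). The summed level in DBA/2J and BALB/cJ over C57BL/6J was 0.779 and 0.807 (ratio of medians), 0.774 and 0.772 as a share of the deposited genes, and 0.804 and 0.813 without insulin. The low level of mt-Nd6 (72 to 593 reads) came with a within-group SD of 0.57 (log2), and how much of that spread is due to depth was not tested. Single days are limited by 3 or 4 mice a group.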

Other observations

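For 2 further mitochondrial lists, counts are given beside 34.4% of all genes called higher and 33.6% lower in DBA/2J, and 33.2% and 34% in BALB/cJ. Of 14 chaperones and proteases, 9 were higher and 2 lower in DBA/2J against C57BL/6J and 6 and 3 in BALB/cJ against C57BL/6J. Afg3l2, an inner-membrane protease, was higher in both (0.28 ± 0.02 and 0.29 ± 0.02, log2 and SE), and Hspe1, the small chaperonin, was lower in BALB/cJ (-0.73 ± 0.07, adjusted p = 2.15e-13, limma). Of 17 mitochondrial aminoacyl-tRNA synthetases, which charge the tRNAs that mitochondrial DNA encodes, 4 were higher and 4 lower in DBA/2J and 2 and 4 in BALB/cJ. Nars2, for asparagine, differed by -0.73 ± 0.04 in DBA/2J and -0.39 ± 0.04 in BALB/cJ, and Vars2, for valine, by -0.35 ± 0.05 and -0.32 ± 0.05.

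The high-fat diet moved few nuclear genes of these lists, as it moved none of the mitochondrial ones. Over all strains and days, Cox6a2, a complex IV subunit known from heart and muscle, was lower on HFD (-0.58 ± 0.13, adjusted p = 0.0033). Of 74 nuclear subunits 2 were called, where 5.47% of all genes were. Of the other lists, Mgme1, a nuclease of mitochondrial DNA replication, was lower (-0.20 ± 0.06, adjusted p = 0.0395), Hspe1 was lower (-0.20 ± 0.06, adjusted p = 0.0395), and Afg3l2, Iars2 and Pars2 were higher (0.09 ± 0.02, 0.09 ± 0.02 and 0.15 ± 0.05).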
